A study of Homo sapiens with 6 samples.

Results

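TNFRSF19, a cell-surface receptor of the TNF receptor superfamily also known as TROY, was described together with 9 other receptors of the family. The cells were TYK-nu, labelled as ZNFX1 knockout or wildtype. The 10 genes were the gene rows whose symbol was TNFRSF19, TNFRSF1A, TNFRSF1B, TNFRSF10A, TNFRSF10B, TNFRSF10D, TNFRSF12A, TNFRSF21, FAS or LTBR, out of 62260 gene rows in all. TNFRSF19 was selected on its measured fall in the knockout libraries (fragments and TPM), so its level in this contrast is a description with no test. The other 9 were taken as family members for contrast.

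The study sequenced total RNA of TYK-nu, a human cell line labelled as ovarian cancer, from 3 cultures labelled ZNFX1 Knockout and 3 labelled Wildtype (WT), called biological replicates in the design text. No drug was given, and all 6 libraries carry the batch label 1. The labels do not say how or where ZNFX1 was edited, nor whether the knockout is 1 clone or a pool. ZNFX1 encodes a helicase-like protein that binds viral RNA, and the series' title places it in pathogen mimicry and inflammasome signalling.

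Receptors of this superfamily bind ligands of the TNF family, most of them trimers, and pass the signal on through adaptors. Receptors with a death domain, such as TNFRSF1A, FAS and the TRAIL receptors TNFRSF10A and TNFRSF10B, can build a caspase-activating complex. Others recruit TRAF proteins directly and lead to NF-kB and JNK signalling. TNFRSF19 has no death domain and no firmly established TNF-family ligand. It is known from neural and epithelial progenitor cells, can take the place of NGFR in the Nogo receptor complex that limits axon growth, and in mouse intestine is a Wnt target gene of stem cells.

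TNFRSF19 lies on the plus strand of chromosome 13, from 23570370 to 23676104 in GENCODE 29 (GRCh38), and has a pair of annotated start regions. Both are shown because the isoforms described further on begin at one or the other. They come from RefSeq's promoter table (GRCh38.p14) and are printed 5′ to 3′ on the plus strand up to the base before the first GENCODE start in the window, with CG dinucleotides in capitals. The upstream stretch is chr13:23570162-23570369 and the downstream one, inside the first intron of the transcripts from the upstream start, is chr13:23579110-23579358.
TNFRSF19 upstream start: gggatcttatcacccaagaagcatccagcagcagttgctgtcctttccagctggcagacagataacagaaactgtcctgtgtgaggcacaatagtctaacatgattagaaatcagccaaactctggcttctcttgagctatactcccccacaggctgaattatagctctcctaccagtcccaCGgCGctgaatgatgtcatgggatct
TNFRSF19 downstream start: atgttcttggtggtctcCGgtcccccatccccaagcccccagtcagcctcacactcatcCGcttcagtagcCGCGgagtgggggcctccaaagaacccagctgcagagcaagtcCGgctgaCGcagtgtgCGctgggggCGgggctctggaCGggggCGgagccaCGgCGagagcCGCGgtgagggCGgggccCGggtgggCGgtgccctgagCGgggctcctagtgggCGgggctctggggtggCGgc

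The printed stretches hold 2 CG dinucleotides in 208 bases upstream and 20 in 249 bases downstream. Over the table's full 300-base windows, the upstream start had 4 CG and 49.0% G or C, and the downstream start had 27 CG and 72.7% G or C. The median over all 35116 promoters was 14 CG, with quartiles of 4 and 28. The motif GGGCGG, the core of the GC box, matched 5 times in the downstream window and 0 times in the upstream one on either strand, against at least 1 match in 45.0% of all promoters. CTTTGA (core letters of the TCF/LEF motif) and TATAAA matched in neither window on either strand, against 12.9% and 11.5% of all promoters. These letter matches describe the windows and are not binding sites. No methylation or binding was measured.

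Each library held between 21413002 and 23494771 estimated fragments, of which 9.93% to 10.7% stood in transcript rows that the deposited files had not joined to a gene. ZNFX1 had 103, 70.5 and 75.2 CPM (gene fragments scaled to library depth, with TMM factors) in knockout libraries 1 to 3, against 130, 208 and 109 CPM in WT libraries 1 to 3. The knockout libraries were all below WT, with knockout 1 close to WT 3, and the log2 fold change was -0.85 ± 0.27 (SE, adjusted p = 0.218; 0.0468 without WT 3). The whole gene row does not test an edit at one place in the gene. Of 14166 genes tested with edgeR, 103 (0.727%) were called at an adjusted p under 0.05, 38 higher and 65 lower in the knockout. The count was 2 without knockout 2, 7 without knockout 3, 24 without WT 1, 57 without WT 2 and 1315 without WT 3. Of the 6 ovarian markers listed, PAX8, MUC16, MSLN, SOX17 and EMX2 were at or near 0 and WT1 reached 1.22 to 1.94 TPM in the knockout and 1.13 to 2.36 TPM in WT. Of 10 epithelial markers 4 were at 1 TPM or more, and the list summed to 112 to 144.7 TPM in the knockout and 104 to 121 TPM in WT. KRT18 had 70.7 to 88.5 TPM in the knockout and 38.9 to 71.1 TPM in WT, and CLDN7 had 37.1 to 48.2 TPM in the knockout and 43.2 to 53.6 TPM in WT, while EPCAM and CDH1, which define epithelial cells, were under 1 TPM in every library. Of the endothelial markers, 6 of 7 were at 1 TPM or more, and the list summed to 229 to 285 TPM in the knockout and 213 to 292 TPM in WT. PTPRC, which marks leukocytes, was at 0, and the summed leukocyte list, 9 genes, ran from 1.47 to 4.62 TPM in the knockout and 0.222 to 1.71 TPM in WT, most of it LYZ. These are gene-row levels in bulk RNA, in which fewer cells of a type and less RNA per cell cannot be told apart.

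TNFRSF19 had 8.35, 9.12 and 8.97 CPM in the knockout libraries, against 111, 106 and 88.0 CPM in the WT libraries. That was 8.81 ± 0.410 CPM in the knockout and 102 ± 12.1 CPM in WT (SD, n = 3 each), with 172 to 181 fragments in a knockout library and 1930 to 2175 in a WT library. The 3 knockout libraries lay close together, and the groups were far apart. The log2 fold change was -3.53 ± 0.18 (SE), given without a test. On the length-corrected scale TNFRSF19 had 1.25, 1.66 and 1.43 TPM in the knockout libraries, against 16.9, 16.0 and 16.9 TPM in the WT libraries. Leaving out each library in turn gave log2 fold changes between -3.60 and -3.45.

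**Figure D1:**
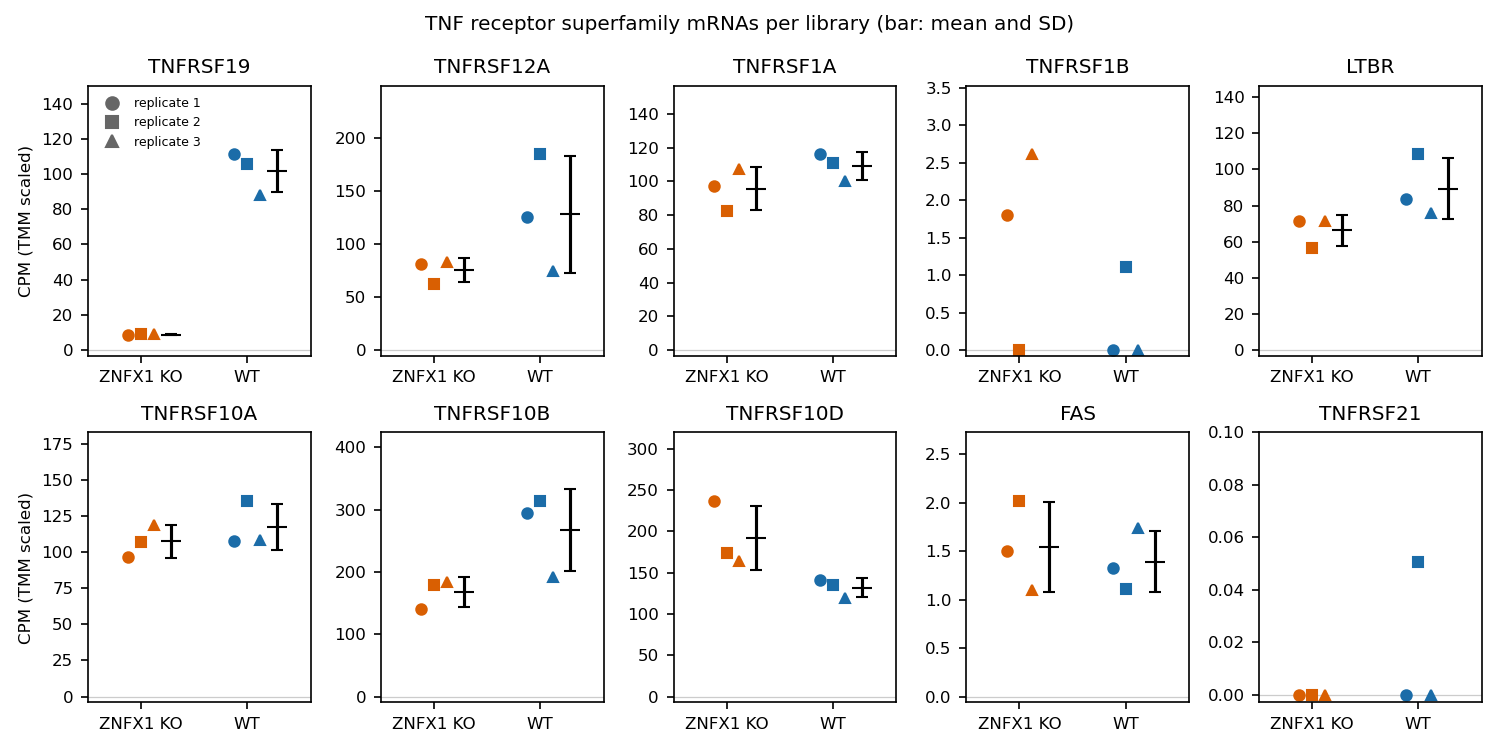
CPM (TMM scaled) of the 10 receptors in each ZNFX1 KO library (orange, left) and each WT library (blue, right), with the symbol giving the replicate number and black bars the mean and SD, drawn for all but TNFRSF1B and TNFRSF21. TNFRSF19 stands at 8.35 to 9.12 CPM in the knockout and 88.0 to 111 CPM in WT, while the other receptors overlap or lie near each other.

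Counts per length allow the receptors to be ranked against each other. In the knockout, TNFRSF12A was the most abundant with 63.2 ± 4.47 TPM, above TNFRSF10D (36.8 ± 5.42), TNFRSF10A (34.8 ± 6.20), TNFRSF10B (33.7 ± 7.48) and TNFRSF1A (30.8 ± 2.77 TPM; SD, n = 3), whose neighbouring ranges overlapped. LTBR followed with 24.7 ± 2.07 TPM, and TNFRSF19 was seventh of the 10 with 1.45 ± 0.209 TPM. In WT, TNFRSF12A again led with 100.1 ± 32.5 TPM, followed by TNFRSF10B (51.6 ± 6.89), then TNFRSF10A (35.2 ± 4.76), TNFRSF1A (34.5 ± 2.65) and LTBR (32.4 ± 4.13 TPM), which overlapped as neighbours. TNFRSF10D had 24.9 ± 1.70 TPM in WT and TNFRSF19, also seventh, 16.6 ± 0.511 TPM. FAS, TNFRSF1B and TNFRSF21 were under 1 TPM in every library. By mean TPM alone, TNFRSF10D was thus second in the knockout, where its range overlapped that of TNFRSF10A, and sixth in WT. TNFRSF19 made up 0.639% of the summed TPM of the 10 receptors in the knockout and 5.69% in WT. That sum was 213, 230 and 235 TPM in the knockout libraries, against 278, 339 and 269 TPM in the WT libraries.

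The deposited gene rows also give a mean transcript length weighted by the abundance of each isoform, which shows the isoform mix. For TNFRSF19 it was 4151 bases in all 3 knockout libraries, against 3999, 4043 and 4084 bases in the WT libraries. The knockout value is the same number as the GENCODE 29 length of TNFRSF19-203, a protein-coding transcript from the downstream, CG-rich start. The WT values were lower in every library, by 152, 108 and 66.7 bases. GENCODE 29 lists 3 more protein-coding transcripts. TNFRSF19-201 (3276 bases) and TNFRSF19-204 (4277 bases) begin at the upstream start, and TNFRSF19-202 (1625 bases) begins at the downstream start with a shorter 3′ end. The annotation release behind the authors' lengths is not given in the sources used here, and it was not GENCODE 29 throughout. TNFRSF10D, with 1 transcript, had 3535 bases in the deposited files and 3538 in GENCODE 29, and FAS reached 16484 bases in the files against 2563 for its longest GENCODE 29 transcript. The match of TNFRSF19 to TNFRSF19-203 is therefore a match of lengths across releases, and the transcripts in the WT mix were not resolved. The lower fragment number in the knockout libraries, 172 to 181 against 1930 to 2175, stands beside this difference, and its part in the result was not tested. A processed transcript from the downstream region, TNFRSF19-205, had its own row, with 0, 1.12 and 0 fragments in the knockout libraries and 9.99, 3.87 and 4.93 fragments in the WT libraries.

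**Figure D2:**
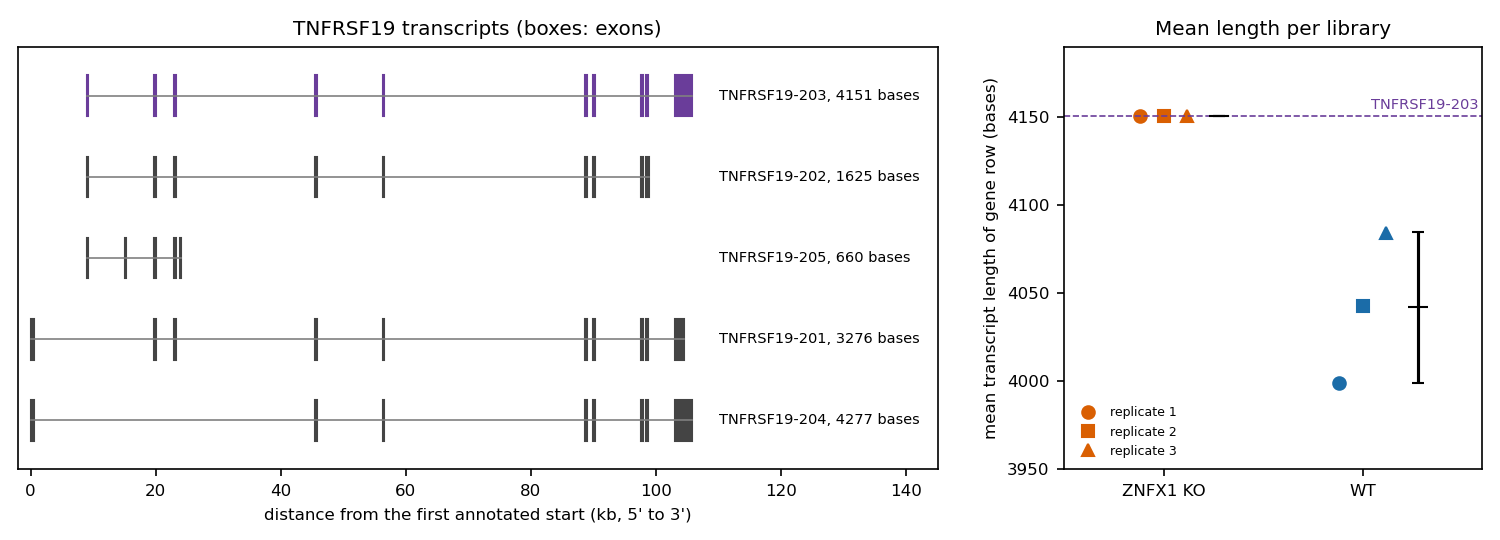
Left, the 5 GENCODE 29 transcripts of TNFRSF19 along the gene in kb from the first annotated start, with boxes for exons. Right, the mean transcript length of the gene row in bases for each ZNFX1 KO library (orange) and WT library (blue), with black bars for mean and SD, an axis that does not start at 0 and a dashed line at the length of TNFRSF19-203: the 3 knockout libraries lie on the line and the WT libraries at 3999 to 4084 bases.

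Mean transcript length could be compared in 5 other members, those with at least 50 fragments in each library and a length that varied. TNFRSF10A had 2217, 2110 and 2240 bases in the knockout libraries, against 2277, 2277 and 2304 bases in the WT libraries. TNFRSF12A had 938, 931 and 942 bases in the knockout libraries, against 956, 964 and 948 bases in the WT libraries. In both the knockout libraries lay below WT (exact permutation p = 0.1 each, two-sided, the smallest that 3 against 3 allows). The lengths of TNFRSF1A, TNFRSF10B and LTBR overlapped. Among 7873 tested genes that met the same conditions, the groups lay apart in 9.81%.

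No other member passed the test. Of the 9, 8 were tested and 0 were called, against 0.727% of all genes. At an unadjusted p under 0.05 there were 3 (TNFRSF10B, TNFRSF10D and TNFRSF12A), against 15.1% of all genes, and DESeq2 and limma-voom also called 0. The groups did not overlap in 3 of the 8, against 20.2% of all genes. TNFRSF10D was above WT, as were 9.38% of all genes, and TNFRSF10B and LTBR were below WT, as were 10.8%. Their median log2 fold change was -0.16, against -0.01 over all genes tested. Without WT 3, TNFRSF10B (log2 fold change -0.84, adjusted p = 0.0352) and TNFRSF12A (-1.02, adjusted p = 0.0338) were called, in a fit that called 9.02% of all genes.

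The death receptors for TRAIL, TNFRSF10A (DR4) and TNFRSF10B (DR5), lie close to each other and to the decoy receptor TNFRSF10D on chromosome 8. TNFRSF10A had 96.5, 107 and 119 CPM in the knockout libraries, against 108, 136 and 109 CPM in the WT libraries. The groups overlapped, with a log2 fold change of -0.13 (95% interval -0.52 to 0.27, edgeR adjusted p = 0.743). TNFRSF10B had 141, 179 and 184 CPM in the knockout libraries, against 295, 314 and 192 CPM in the WT libraries. All knockout libraries were below WT, WT 3 only just above knockout 3, and the log2 fold change was -0.67 (95% interval -1.18 to -0.15, edgeR adjusted p = 0.243). A retained-intron transcript with a row of its own, TNFRSF10B-208, had 156, 190 and 105 fragments in the knockout libraries, against 390, 430 and 319 fragments in the WT libraries. Its knockout mean was 39.7% of the WT mean in fragments not scaled to depth, against 62.9% in CPM for the gene row. Among the other unjoined rows, TNFRSF10B-207 (64.3%) and TNFRSF10B-206 (72.5%) overlapped between groups. The rows TNFRSF10B-203, TNFRSF10B-204 and TNFRSF10B-205 held few fragments and ran from 40.2% to 329%. None of these transcript rows was part of the genome-wide test, and no share over all transcript rows is given.

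TNFRSF10D, whose death domain is truncated so that it binds TRAIL without starting the death signal, had 237, 174 and 165 CPM in the knockout libraries. It had 142, 134 and 120 CPM in the WT libraries. All knockout libraries were above WT, knockout 1 the furthest, with a log2 fold change of 0.54 (95% interval 0.10 to 0.98, edgeR adjusted p = 0.259). The ratio of TNFRSF10D to the sum of TNFRSF10A and TNFRSF10B in TPM, formed after the values were seen, was 0.786, 0.473 and 0.426 in the knockout libraries and 0.296, 0.245 and 0.325 in the WT libraries. All 3 knockout ratios lay above the WT ratios, and no test is given for them. The ratio leaves out TNFRSF10C, also a decoy receptor for TRAIL, which was scarce. It had 1.94, 1.41 and 0.887 CPM in the knockout libraries and 2.81, 4.10 and 1.55 CPM in the WT libraries. Its groups overlapped, with a log2 fold change of -0.99 (edgeR adjusted p = 0.351). TNFRSF10A, TNFRSF10B and TNFRSF10D are paralogs, and fragments shared between them were divided by the authors' estimation. TNFRSF10B also shares bases at its ends with RHOBTB2 and an antisense gene, and TNFRSF10A with its antisense gene.

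TNFRSF1A, the main receptor for soluble TNF, carries a death domain, while TNFRSF1B, which binds membrane-bound TNF best, recruits TRAF2. TNFRSF1A had 97.1, 82.4 and 107 CPM in the knockout libraries, against 116, 111 and 100 CPM in the WT libraries. The groups overlapped, with a log2 fold change of -0.19 (95% interval -0.57 to 0.19, edgeR adjusted p = 0.602). For TNFRSF1B the gene row held 37, 0 and 50 fragments in the knockout libraries, against 0, 22 and 0 fragments in the WT libraries. A transcript row that had not been joined to the gene, TNFRSF1B-203 (3583 bases, a processed transcript), held 0, 30 and 0 fragments in the knockout libraries and 26, 0 and 32 fragments in the WT libraries. In each of the 6 libraries all fragments thus stood in 1 of these 2 rows and none in the other. Joined, TNFRSF1B had 1.80, 1.51 and 2.61 CPM in the knockout libraries and 1.33, 1.11 and 1.46 CPM in the WT libraries. The log2 fold change was 1.98 ± 1.47 (SE, adjusted p = 0.537) for the gene row and 0.61 ± 0.34 (adjusted p = 0.390) for the joined rows. Without WT 2, the only WT library with fragments in the gene row, the gene row's value was 7.90 (edgeR adjusted p = 0.348) and depended on the prior count. With all 6 libraries, limma on log2(TPM + 1) gave 0.23 for the gene row.

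**Figure D3:**
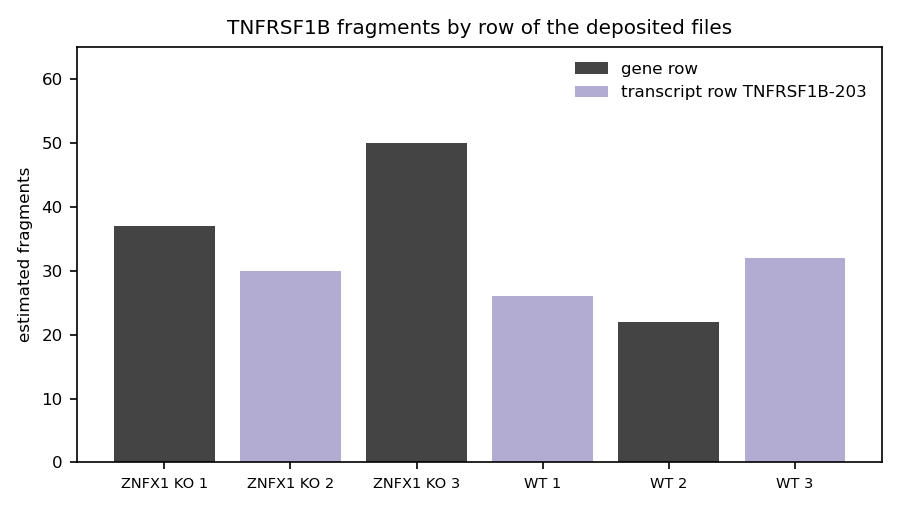
Estimated fragments of TNFRSF1B in each library, stacked by the row of the deposited files that holds them, with the ZNFX1 KO libraries left and the WT libraries right. Each library has fragments in the gene row (37, 50 and 22) or in the transcript row TNFRSF1B-203 (30, 26 and 32), never in both.

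TNFRSF12A (Fn14), the receptor for TWEAK and a growth-factor-responsive gene, had 81.6, 62.1 and 82.8 CPM in the knockout libraries, against 126, 185 and 74.8 CPM in the WT libraries. WT 2 was the highest and WT 3 fell among the knockout libraries, with a log2 fold change of -0.77 (95% interval -1.46 to -0.07, edgeR adjusted p = 0.299; 0.0338 without WT 3). LTBR, the lymphotoxin beta receptor and a trigger of noncanonical NF-kB signalling, had 71.4, 56.6 and 71.3 CPM in the knockout libraries, against 83.9, 108 and 75.9 CPM in the WT libraries. All knockout libraries were below WT by a small margin, with a log2 fold change of -0.43 (95% interval -0.87 to 0.01, edgeR adjusted p = 0.340). On the opposite strand, CLDN6 overlaps TNFRSF12A over 1627 bases and SCNN1A overlaps LTBR over 2686 bases. The library kit keeps strand, but whether the counting used it is not given in the sources used here.

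FAS, the receptor for FAS ligand, had 1.505, 2.02 and 1.10 CPM in the knockout libraries, against 1.33, 1.11 and 1.73 CPM in the WT libraries. The groups overlapped at 21 to 40 fragments a library (edgeR adjusted p = 0.877, 95% interval of the log2 fold change -0.72 to 1.01). A change within that interval is not excluded. TNFRSF21 (DR6), a death receptor known from neurons, had 0 fragments in 5 libraries and 1 fragment in WT 2, and was not tested. A count of 0 allows up to 3 fragments, which is 0.137 to 0.157 CPM in these libraries, for counting error alone.

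The remaining receptors of the superfamily were followed as a list of 19 genes, of which 8 were tested and 0 were called, against 0.727% of all genes (DESeq2 called 1). At an unadjusted p under 0.05 there were 2 (TNFRSF11A and TNFRSF14), against 15.1% of all genes, and the list's median log2 fold change was -0.43. The groups did not overlap in the same 2 of the 8, both below WT, against 10.8% of all genes. CD40, the costimulatory receptor of antigen-presenting cells, had 36.3, 40.5 and 45.1 CPM in the knockout libraries and 42.2, 31.6 and 27.6 CPM in the WT libraries (log2 fold change 0.27, adjusted p = 0.545). RELT, a receptor with no firmly known TNF-family ligand, had 12.7, 11.5 and 17.8 CPM in the knockout libraries and 13.99, 13.3 and 18.6 CPM in the WT libraries (adjusted p = 0.816). Both overlapped between groups. TNFRSF11A (RANK), the receptor for RANK ligand, had 12.3, 10.5 and 11.1 CPM in the knockout libraries and 22.4, 18.4 and 15.3 CPM in the WT libraries, with no overlap (log2 fold change -0.73, adjusted p = 0.171; 0.0383 without WT 3). NGFR, whose place TNFRSF19 can take, had 1.26, 1.91 and 2.14 CPM in the knockout libraries and 3.98, 4.91 and 1.32 CPM in the WT libraries, where WT 3 fell among the knockout libraries. TNFRSF14 (HVEM), a receptor for the ligand LIGHT, had 0.874, 0 and 0.417 CPM in the knockout libraries and 2.30, 7.44 and 1.09 CPM in the WT libraries, without overlap and with WT 2 the highest. Its log2 fold change was -3.04 (adjusted p = 0.231; 0.0272 with DESeq2) and ran from -4.08 without knockout 1 to -1.95 without WT 2, with -2.44 without knockout 2. NGFR and TNFRSF14 are named outside the rule for named genes and were chosen after their values were seen.

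Of 18 TNF-family ligands 4 were tested, and 1 was called, higher in the knockout, against 0.268% of all genes called higher. TNFSF18 (GITR ligand), which costimulates T cells, had 40.9, 47.4 and 43.4 CPM in the knockout libraries, against 13.7, 20.6 and 12.95 CPM in the WT libraries. It rose in the knockout with a log2 fold change of 1.48 ± 0.22 (SE, adjusted p = 0.0281). Every knockout library was above every WT library, as in 9.38% of all genes. The adjusted p was 0.0507 without knockout 1, 0.163 without knockout 2, 0.152 without knockout 3 and 0.140 without WT 1, and 0.0562 with limma on log2(TPM + 1). The ligands of the members, named after their values were seen, were scarce in their gene rows in both groups. Transcript rows not joined to a gene were not examined for them. TNF had 0.534, 0.151 and 0.209 CPM in the knockout libraries and 0.460, 0.809 and 0.319 CPM in the WT libraries. TNFSF10 (TRAIL) had 0 fragments in the 3 knockout libraries and 0 to 0.152 CPM in WT. FASLG and TNFSF12 (TWEAK) were at 0 in all 6 libraries, which allows up to 0.157 CPM in the gene row alone.

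Of 15 genes for death signalling 14 were tested and 0 were called, against 0.727% of all genes, and DESeq2 also called 0. At an unadjusted p under 0.05 there was 1 (XIAP), against 15.1% of all genes. Their median log2 fold change was 0.01. CFLAR, which blocks caspase activation at the receptor, had 105, 164 and 161 CPM in the knockout libraries and 95.5, 96.3 and 126 CPM in the WT libraries (log2 fold change 0.44, adjusted p = 0.388). BID, which links death receptors to mitochondria, had 35.5, 27.8 and 39.2 CPM in the knockout libraries and 23.8, 23.1 and 29.7 CPM in the WT libraries (log2 fold change 0.42, adjusted p = 0.354). In CFLAR and BID the groups overlapped through 1 library each.

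The 26 genes that carry receptor signals to NF-kB were all tested, and 1 was called, against 0.727% of all genes. At an unadjusted p under 0.05 there were 9, against 15.1% of all genes, and the median log2 fold change was -0.24. Among these 9, TNFAIP3, TRAF6, IKBKB and MAP3K7 were higher in the knockout, and TRAF1, BIRC3, CYLD, TAB3 and MAP3K14 were lower. The groups did not overlap in 5 of the 26, against 20.2% of all genes. TNFAIP3 and TRAF6 lay above WT, and TRAF1, TAB3 and MAP3K14 lay below WT. TRAF6, IKBKB and MAP3K7 are named here after their values were seen. TRAF6 had a log2 fold change of 0.63 (edgeR adjusted p = 0.183). IKBKB (0.78, adjusted p = 0.257) and MAP3K7 (0.76, adjusted p = 0.273) overlapped between groups. TNFAIP3 (A20), a ubiquitin-editing inhibitor of NF-kB signalling, had 13.2, 43.5 and 37.2 CPM in the knockout libraries, against 4.50, 7.28 and 4.61 CPM in the WT libraries. It rose with a log2 fold change of 2.52 ± 0.43 (SE, adjusted p = 0.0481), knockout 1 being the lowest of the knockout libraries. The adjusted p was 0.216 without knockout 2, 0.201 without knockout 3, 0.202 without WT 1 and 0.0687 without WT 2, and limma-voom, the length offset and both TPM fits called 0 of the list, with a log2 fold change of 1.56 on log2(TPM + 1). TRAF1 and BIRC3, adaptors of TNF receptors and themselves NF-kB target genes, were chosen after their values were seen. TRAF1 had 2.23, 4.94 and 4.43 CPM in the knockout libraries and 10.2, 42.1 and 5.20 CPM in the WT libraries (log2 fold change -2.31, adjusted p = 0.206; 0.0305 without WT 3), and its log2 fold change was -0.99 without WT 2 (adjusted p = 0.537). BIRC3 had 24.2, 71.5 and 40.2 CPM in the knockout libraries and 116, 265 and 49.8 CPM in the WT libraries (log2 fold change -1.66, adjusted p = 0.259; 0.0385 without WT 3), and its log2 fold change was -0.87 without WT 2 (adjusted p = 0.652). WT 2 was the highest library in both genes, as it was in TNFRSF12A, LTBR and TNFRSF10B. Without WT 3, 6 of the 26 were called, in the fit that called 9.02% of all genes.

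**Figure D4:**
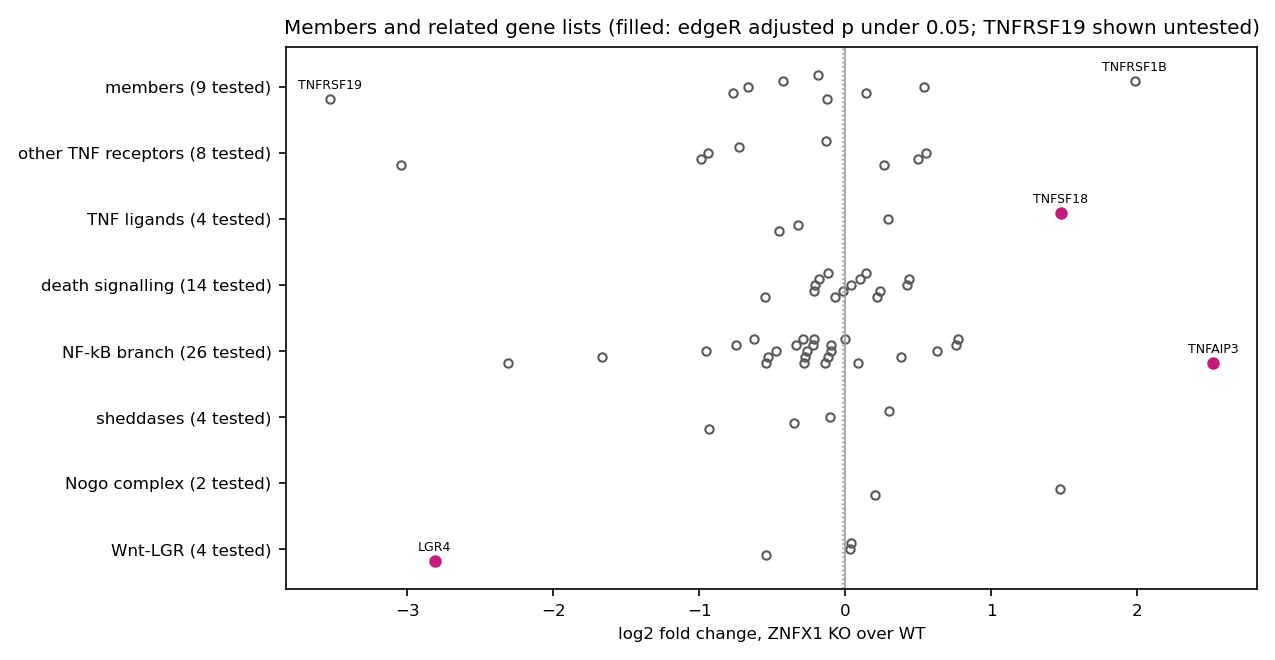
Log2 fold change of ZNFX1 KO over WT for each tested gene (circle) of the members and 7 related lists, filled where the edgeR adjusted p was under 0.05 and with a dotted line at the median of all genes tested. TNFRSF19, left untested, lies at -3.53, and the filled genes are TNFSF18, TNFAIP3 and LGR4.

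Receptor ectodomains are shed by ADAM10 and ADAM17, and RHBDF1 helps ADAM17 to mature. Of 4 sheddase genes tested 0 were called, against 0.727% of all genes, and DESeq2 also called 0. At an unadjusted p under 0.05 there was 1 (RHBDF1), against 15.1% of all genes. The groups did not overlap in the same 1 of the 4, below WT, against 10.8% of all genes. ADAM17 had 127, 131 and 123 CPM in the knockout libraries and 147, 151 and 111 CPM in the WT libraries, which overlapped (95% interval of the log2 fold change -0.50 to 0.30). ADAM10 had 78.5, 125 and 70.5 CPM in the knockout libraries and 87.2, 48.6 and 87.2 CPM in the WT libraries, also overlapping. RHBDF1 had 11.3, 7.01 and 10.95 CPM in the knockout libraries and 19.3, 23.4 and 13.1 CPM in the WT libraries, without overlap (log2 fold change -0.93, adjusted p = 0.193; 0.0356 without WT 3).

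The partners of TNFRSF19 in the Nogo receptor complex mostly had few or no fragments in their gene rows. Transcript rows not joined to a gene were not examined for these partners. RTN4R, the Nogo receptor, and LINGO1 had 0 fragments in all 6 libraries, OMG, a myelin ligand, had 1 fragment in WT 3, and 2 of the 7 genes were tested with 0 called, against 0.727% of all genes. DESeq2 also called 0, and 1 (RTN4RL2) had an unadjusted p under 0.05, against 15.1% of all genes. RTN4, which encodes the ligand Nogo, had 408, 476 and 423 CPM in the knockout libraries and 380, 400 and 355 CPM in the WT libraries (log2 fold change 0.20, adjusted p = 0.560). RTN4RL2, a Nogo receptor homologue, had 4.51, 26.3 and 30.3 CPM in the knockout libraries and 8.89, 7.64 and 5.52 CPM in the WT libraries, with knockout 1 below all WT libraries (log2 fold change 1.47, adjusted p = 0.295; 0.0241 without knockout 1).

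Of 15 genes of the Wnt and R-spondin receptor list 4 were tested and 1 was called, lower in the knockout, against 0.459% of all genes called lower. At an unadjusted p under 0.05 there was 1 (LGR4), against 15.1% of all genes. LGR4, a receptor for R-spondins that raises Wnt signalling, had 1.07, 1.61 and 0.991 CPM in the knockout libraries, against 3.42, 9.81 and 12.6 CPM in the WT libraries. It fell with a log2 fold change of -2.81 ± 0.50 (SE, adjusted p = 0.0499). The adjusted p was 0.118 without knockout 1, 0.216 without knockout 2, 0.272 without knockout 3 and 0.0940 without WT 2, and between 0.0519 and 0.223 with DESeq2 size factors, limma-voom, the length offset and both TPM fits, with a log2 fold change of -0.82 on log2(TPM + 1). The remaining tested genes of the list, named after their values were seen, were AXIN2, ZNRF3 and LEF1. AXIN2 (log2 fold change 0.04, edgeR adjusted p = 0.973) and ZNRF3 (0.04, adjusted p = 0.944) overlapped between groups. LEF1 lay below WT without overlap (-0.54, adjusted p = 0.381), as did 10.8% of all genes. LGR5, the stem cell receptor that shares tissue with TNFRSF19 in mouse intestine, had 0 fragments in its gene row in all 6 libraries.

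The 5 genes whose pattern over the 6 libraries was most like that of TNFRSF19 were taken from 10505 tested genes by the root mean square difference of centred log2-CPM. They were PLA2G4A (0.213), CPE (0.255), TGFB3 (0.501), CELSR1 (0.546) and VPS35L (0.577). PLA2G4A, a phospholipase that releases arachidonic acid, had 29.4, 30.1 and 26.8 CPM in the knockout libraries, against 246, 299 and 234 CPM in the WT libraries. CPE, a carboxypeptidase of secretory granules, had 1.65, 1.41 and 1.25 CPM in the knockout libraries, against 14.2, 13.1 and 11.4 CPM in the WT libraries. All 5 share the same 6 libraries and the same split between groups, so the likeness is a description.

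Tested genes that follow TNFRSF19 on chromosome 13 were described too. MIPEP, a mitochondrial peptidase gene 54085 bases after TNFRSF19, had 24.2, 17.6 and 16.9 CPM in the knockout libraries, against 51.7, 37.3 and 46.6 CPM in the WT libraries. It fell with a log2 fold change of -1.21 ± 0.21 (SE, adjusted p = 0.0499). The adjusted p was 0.260 without knockout 2, 0.284 without knockout 3, 0.207 without WT 1, and between 0.0519 and 0.124 with DESeq2 size factors, limma-voom, the length offset and both TPM fits. PCOTH, whose first 531 bases overlap MIPEP on the opposite strand, had 0.777, 0.907 and 0.939 CPM in the knockout libraries and 1.99, 2.53 and 2.78 CPM in the WT libraries, with no overlap (log2 fold change -1.47 ± 0.34, SE, adjusted p = 0.111). PCOTH held only 16 to 61 fragments a library, and 10.8% of all genes likewise lay below WT without overlap. Further on, and looked at after the values were seen, SPATA13 had a log2 fold change of 0.21 ± 0.18 and PARP4 of 0.01 ± 0.15 (SE).

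**Figure D5:**
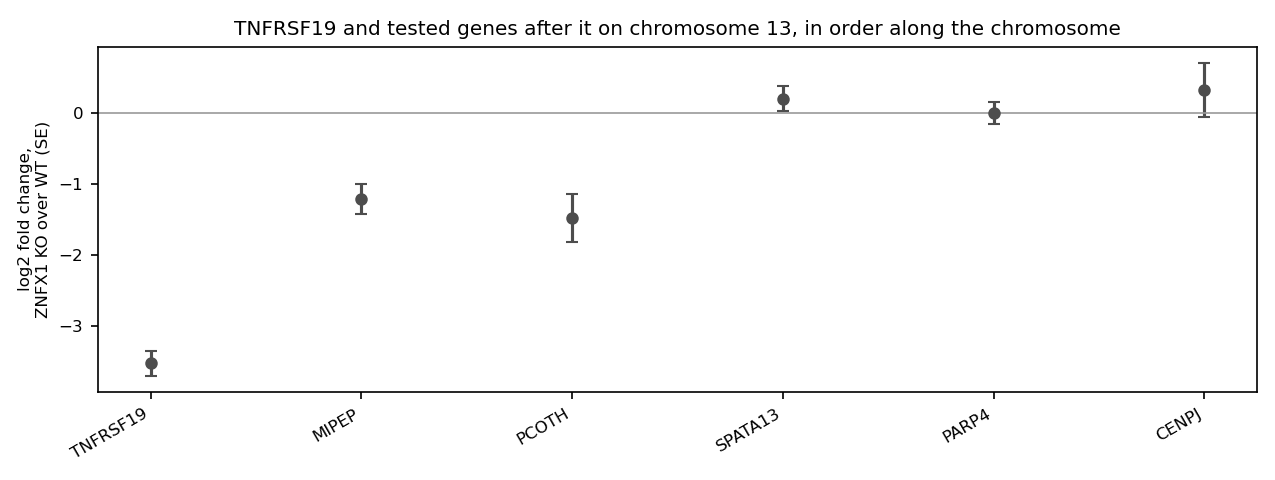
Log2 fold change of ZNFX1 KO over WT with its SE for TNFRSF19 and tested genes after it, in order along chromosome 13 and not to scale. TNFRSF19 (-3.53), MIPEP (-1.21) and PCOTH (-1.47) lie below 0, while SPATA13 (0.21) and PARP4 (0.01) lie near 0. CENPJ lies at 0.33 with an SE of 0.38.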

How the data were processed

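The labels' protocols describe total RNA of 3 ZNFX1 KO and 3 WT samples and a library kit that keeps strand. The deposited files hold estimated counts of fragments made with Salmon, per the labels. The deposited TPM values and transcript lengths are the authors' too. FastQC, Trimmomatic and DESeq2 are also named in the submitters' processing notes; tool versions, the genome build and the annotation release were not given in the sources used here. Of 197169 rows per file, 62260 were genes and 134909 were transcripts not joined to a gene. The transcripts stayed outside the main test, and 103521 of them were joined in an alternative.

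Estimated counts were rounded. Genes kept by filterByExpr (14166, with at least 99.8% of the gene fragments) were tested with edgeR 4.0.16 in R 4.3.3 (quasi-likelihood test, two-sided, TMM factors 0.958 to 1.04, genotype as the only term), with Benjamini-Hochberg adjustment over all genes tested and a threshold of 0.05. Alternatives used DESeq2 1.42.0 and limma 3.58.1. CPM values use TMM-scaled gene fragments. A 95% interval comes from the t distribution with the test's degrees of freedom. Library pairs within a group differed by chi-square per degree of freedom of at least 30.8, so none of these was a duplicate. Pairs across groups were not checked. Replicates are called biological; where cultures were not separate, p-values measure only the spread between these samples. Intervals and floors cover counting error or sample spread only. Columns of per-sample values not used: 0. The code was tested on simulated data.

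The members and lists were chosen with earlier results of these data known. Named genes were all members, every called gene of a list or else its up to 3 most abundant, the 5 genes most like TNFRSF19 (average log2-CPM of at least 2), the 2 nearest tested genes on each side and ZNFX1. Some genes that this rule named are not reported here. Coordinates come from GENCODE 29 and promoter sequences from RefSeq (GRCh38.p14), in which 6 of the 10 members had an entry.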

Additional observations from a re-analysis of the deposited data

Results flagged for a closer look

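TNFRSF1A-212, a protein-coding transcript with a row of its own that is not part of the TNFRSF1A gene row, held fragments in the knockout libraries alone. It had 137, 112 and 0 fragments in knockout libraries 1 to 3 (mean 82.8), against 0, 0 and 0 fragments in WT libraries 1 to 3. It was singled out because it is a signal outside the gene rows and above the WT level, and knockout 3 had none. Over all its transcript rows TNFRSF1A had 6.22% to 13.9% of its fragments outside the gene row, and with them joined its log2 fold change was -0.16 (edgeR adjusted p = 0.626).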

How the results depend on the processing

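The number of genes called was 602 with no filter, 579 with DESeq2, 48 and 66 with limma on log2(TPM + 1) and log2(TPM + 0.1), 187 with transcript rows joined and 2 to 1315 when each library was left out. With a replicate block it was 14. The replicate numbers are not known to pair the samples (correlations 0.13, -0.04 and 0.01 for numbers 1 to 3). These correlations cannot decide it, since deviations from a mean of 3 libraries are not independent. Other members called ranged from 0 to 2 when each library was left out. Other TNF receptors called were 1 with no filter, 1 with DESeq2 and 0 to 1 with libraries left out. TNF ligands called were 0 on log2(TPM + 1), 0 with the replicate block and 0 to 2 with libraries left out. NF-kB branch genes called were 3 with no filter, 0 with limma-voom, 0 with the length offset, 0 on both TPM scales, 0 with the replicate block and 0 to 6 with libraries left out. Nogo complex, Wnt and sheddase genes called were 0 with DESeq2 size factors, 2 with no filter, 0 with limma-voom, 0 with the length offset, 0 on both TPM scales, 0 with the replicate block and 0 to 2 with libraries left out. The cause of these moves was not tested.

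The log2 fold change of TNFRSF19 was -2.85 on log2(TPM + 1), a scale on which the pseudocount shrinks low values, and -3.60 to -3.44 in the other alternatives run. Members whose mean transcript lengths lay apart numbered 3, and 4 without knockout 3. FAS turned to -0.026 with transcript rows joined and ran from -0.084 to 0.35 with libraries left out, turning negative without knockout 2. With libraries left out, RELT ran from -0.32 to 0.055 (turning without knockout 2 and without WT 3). The rank of TNFRSF19 was 7 in both groups under both length scalings. Depth limits FAS, TNFRSF1B and TNFRSF21, at 50 fragments or fewer a library.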
